A study of Mus musculus with 6 samples.

Results

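The endoplasmic reticulum membrane complex (EMC) is a multi-subunit machine that places membrane-spanning segments of newly made proteins into the membrane of the endoplasmic reticulum. The genes described here are 10 of the 22180 genes tested on the arrays. They are Mmgt1, which encodes EMC subunit 5, its paralog Mmgt2, the subunit genes Emc1, Emc2, Emc3, Emc4, Emc7 and Emc10, and Bcap29 and Bcap31, which encode a related pair of membrane proteins of the same organelle. Each gene is represented by its brightest probe set, by the mean over all arrays, among those annotated with a single gene symbol. Mmgt1 and Bcap29 were chosen by their measured increase in the comparison used below, where they are among the largest, so their differences are given as a description without a test. The others were chosen as relatives or partners of these with results of the same comparison known. Mmgt1 was 4.43-fold and Bcap29 4.31-fold higher in the knockdown, and the other 8 genes, EMC subunits among them, differed by at most 0.15 on the log2 scale.

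In the EMC, Emc3 and Emc6 form the core of the insertase in the membrane together with Emc5, the product of Mmgt1. Emc1, Emc7 and Emc10 carry large parts in the lumen, and Emc2 with Emc8 or Emc9 forms the cytosolic part. The complex handles tail-anchored proteins and the first transmembrane segments of many receptors and channels, a large class of proteins in neurons. Bcap31 and Bcap29, also called BAP31 and BAP29, form dimers and take part in the quality control and export of membrane proteins.

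The samples were primary hippocampal cells dissected from mouse embryos at day E18, infected with AAV1/2 (an adeno-associated virus) 7 days after seeding and harvested for RNA 7 days later. In the 3 knockdown samples the virus carried a construct against Diras2, a Ras-family GTPase of the brain, and in the 3 control samples a scrambled sequence. All 6 samples were thus infected. The samples hold 1 knockdown construct and no uninfected cells, and no source used here names the strain. The labels call them biological replicates but do not say whether cultures or litters were separate, so the p-values cover only the spread of these samples, which may be technical in part. The RNA integrity number was 9, 9.3 and 9.2 for knockdown replicates 1 to 3 and 9.2, 9 and 8.8 for control replicates 1 to 3. Levels are log2 RMA values, 1 array per sample, and their precision is limited by the number of arrays.

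Diras2 read 7.17, 6.23 and 6.08 in knockdown replicates 1 to 3 and 10.17, 10.17 and 9.76 in control replicates 1 to 3. It was lower on every knockdown array, with a log2 difference of -3.54. Neuron markers had a mean level between 10.93 and 11.21 on the knockdown arrays and between 10.83 and 11.27 on the control arrays. Of these 8, limma called 1 higher, Dcx at a log2 difference of 0.76, and 1 lower, Snap25 at -0.51. Their differences lay above 0 for 4 and below 0 for 4. An unadjusted p under 0.05 by limma was found for 4, which 20.9% of all genes reached. Excitatory hippocampal neuron markers averaged 8.88 to 9.52 in the knockdown and 8.67 to 9.38 in the control. Of these 6, 0 were called by limma or at an unadjusted p under 0.05. Inhibitory neuron markers averaged 7.68 to 8.15 and 7.99 to 8.58, with 1 of 5 called lower and 2 at an unadjusted p under 0.05. The called marker was Lhx6, at a log2 difference of -1.20, and 4 of the 5 lay below 0, with a median of -0.45. Among all genes 7.80% were called. The mean of 7 astrocyte markers ran from 7.33 to 7.74 in the knockdown and from 7.60 to 7.75 in the control, with 0 called by limma and 1 at an unadjusted p under 0.05. Microglia markers, at 4.36 to 4.57 and 4.42 to 4.73, and endothelial markers, at 3.97 to 4.14 and 3.98 to 4.17, were low in both groups, with 0 called by limma and 2 of 6 and 0 of 5 at an unadjusted p under 0.05, and fibroblast markers stood at 5.76 to 6.14 and 5.64 to 6.10, with 0 of 5 called and 1 at an unadjusted p under 0.05. The mean of 6 oligodendrocyte lineage markers reached 6.04 to 7.04 in the knockdown against 5.80 to 6.20 in the control, with 1 called higher, Pdgfra, at a log2 difference of 2.80. The other 5 lay between -0.19 and 0.52, and the median of the 6 was 0.18. The part of cell composition in the results below was not tested, and in bulk RNA fewer cells of a type and less RNA per cell cannot be told apart.

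On the knockdown arrays Mmgt1 stood at 8.89, 8.78 and 8.81, and on the control arrays at 6.82, 6.80 and 6.42. The groups were far apart, and the spread was smaller in the knockdown (SD 0.06, n = 3) than in the control (SD 0.23, n = 3), where replicate 3 was the lowest. The log2 difference was 2.15 (SE 0.13), the 8th largest increase among all genes. Between samples with the same replicate number it was 2.07, 1.98 and 2.39. It ran from 2.02 without control replicate 3 to 2.22 without control replicate 1, and was 2.06 with the RNA integrity number as a covariate. Mmgt1 is named for magnesium transport, a role ascribed to it beside its place in the EMC.

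Mmgt2, named for the same transport activity, did not share the difference. It read 5.27, 5.41 and 5.54 in the knockdown and 5.33, 5.42 and 5.47 in the control. The values overlapped throughout, and the log2 difference was 0.00 with a 95% interval of -0.25 to 0.25. The interval holds knockdown levels from 0.843 to 1.19 times the control, so a shift of the size seen for Mmgt1 lies outside it.

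**Figure D1:**
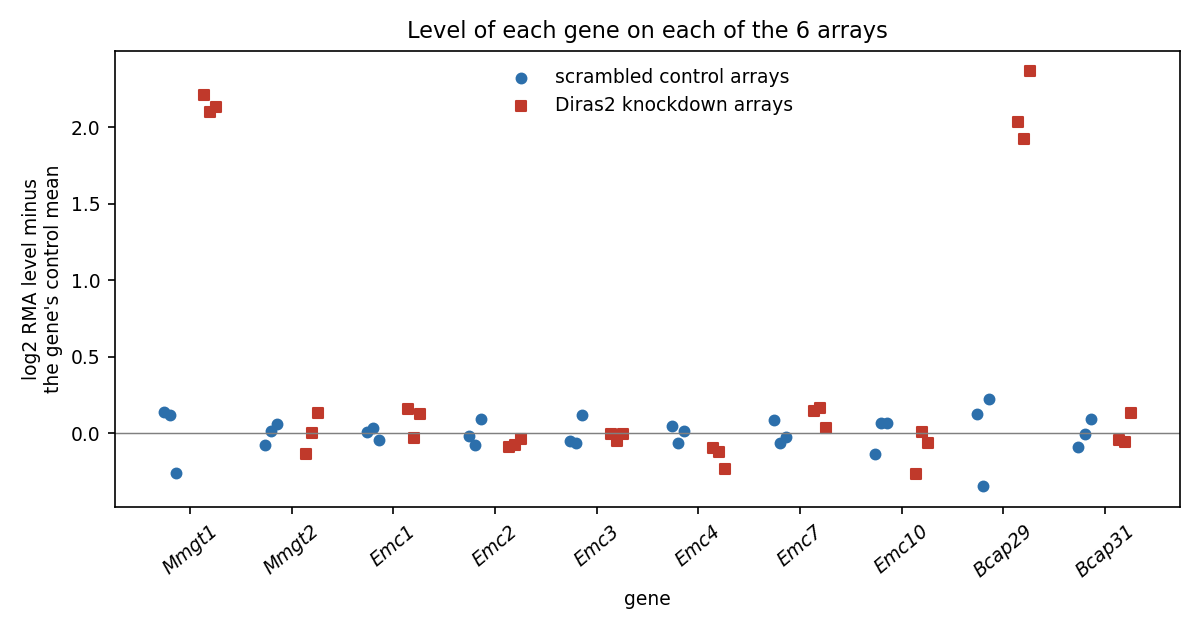
Log2 RMA level of each of the 10 genes on each array, minus that gene's mean over the 3 control arrays (vertical axis, log2 units). Circles are the scrambled control arrays and squares the Diras2 knockdown arrays. The squares of Mmgt1 and Bcap29 lie far above their circles, and those of the other 8 genes lie among or next to theirs.

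RefSeq places a microRNA, mmu-miR-5116, inside the span of Mmgt1. It is shown because it lies inside the gene of the 10 that differed most, and its own level was not analysed. The mature form lies at chrX:56587892-56587912 on the minus strand of GRCm38.p6 and has 21 bases, written 5′ to 3′ with the seed, bases 2 to 8, in capitals.
mmu-miR-5116: uUUGAUAGgaaccccgccuga

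None of the other EMC subunits among the 10 genes was called, a call being an adjusted p under 0.05 by limma over all genes tested. Of all genes tested 7.80% were called, 4.17% higher and 3.64% lower. Of the 10 genes 2 were called higher, Mmgt1 and Bcap29, and 0 lower, a count that their selection fixes in part and from which nothing is read. Of the other 8 genes, 0 were called and 0 had an unadjusted p under 0.05 by limma, against 20.9% of all genes for the latter. Among them 3 lay above 0, 4 below and 1 at 0, with a median log2 difference of -0.01. An absolute difference of 0.15 or less was also found for 53.2% of all genes tested and for 44.2% of the 2133 genes at least as bright as Bcap31, so small differences were common.

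Emc3, the insertase subunit related to the Oxa1 family of bacteria and mitochondria, read 9.73, 9.68 and 9.73 in the knockdown and 9.68, 9.67 and 9.85 in the control. The knockdown values lay within the control range. The log2 difference was -0.02 (95% interval -0.24 to 0.20).

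Emc4, another subunit anchored in the membrane, was the member of the 8 with the largest difference. Its levels were 9.39, 9.36 and 9.25 in the knockdown against 9.53, 9.42 and 9.50 in the control. The groups did not overlap, as for 25.5% of all genes, but the difference of -0.15 (SE 0.10) had an adjusted p of 0.443 by limma. Its 95% interval reached from -0.37 to 0.07.

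The subunits with large lumenal parts went in both directions by small amounts. Emc1, which holds the largest lumenal domain, read 9.45, 9.26 and 9.42 in the knockdown against 9.30, 9.33 and 9.25 in the control. The difference was 0.08 on the log2 scale (95% interval -0.14 to 0.31). Emc7 read 9.64, 9.66 and 9.53 against 9.58, 9.43 and 9.47, a difference of 0.12 (-0.11 to 0.34). Emc10 read 10.42, 10.69 and 10.62 against 10.55, 10.75 and 10.75, a difference of -0.11 (-0.37 to 0.16). In all of these the groups overlapped. Emc7 has a second, dim probe set whose mean was 3.32 on the knockdown arrays and 3.00 on the control arrays, 0.31 apart. It is the only one of the 10 genes with a further probe set of its own.

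Emc2, the cytosolic scaffold subunit, read 10.67, 10.68 and 10.72 in the knockdown and 10.74, 10.68 and 10.85 in the control. One control value matched a knockdown value, and the log2 difference was -0.07 (95% interval -0.29 to 0.15). Across the 8 genes the intervals reached no further than -0.37 and 0.34, a change of at most 1.29-fold in either direction. The intervals are for single genes and are not adjusted for the number of genes.

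The remaining subunits, Emc6, Emc8 and Emc9, complete the 10 EMC subunits measured. Emc6, a core insertase subunit, read 7.37, 7.24 and 7.36 in the knockdown and 6.88, 6.99 and 7.21 in the control. Its knockdown values all lay above the controls. The log2 difference was 0.30 (SE 0.11) with an adjusted p of 0.184 by limma, and from 0.0985 to 0.385 over the alternative settings. Emc8 read 8.36, 8.22 and 8.12 against 8.33, 8.42 and 8.51, a difference of -0.19 (SE 0.11) with overlapping groups. Emc9, its paralog, read 4.78, 5.06 and 4.73 against 4.74, 5.0 and 4.95, a difference of -0.04. Of the 3, limma called 0, against 7.80% of all genes. An unadjusted p under 0.05 by limma was found for 1, Emc6, as for 20.9% of all genes. Mmgt1 was the 1 EMC subunit of 10 with an absolute log2 difference of at least 1, which its choice for its increase fixes in part.

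**Figure D2:**
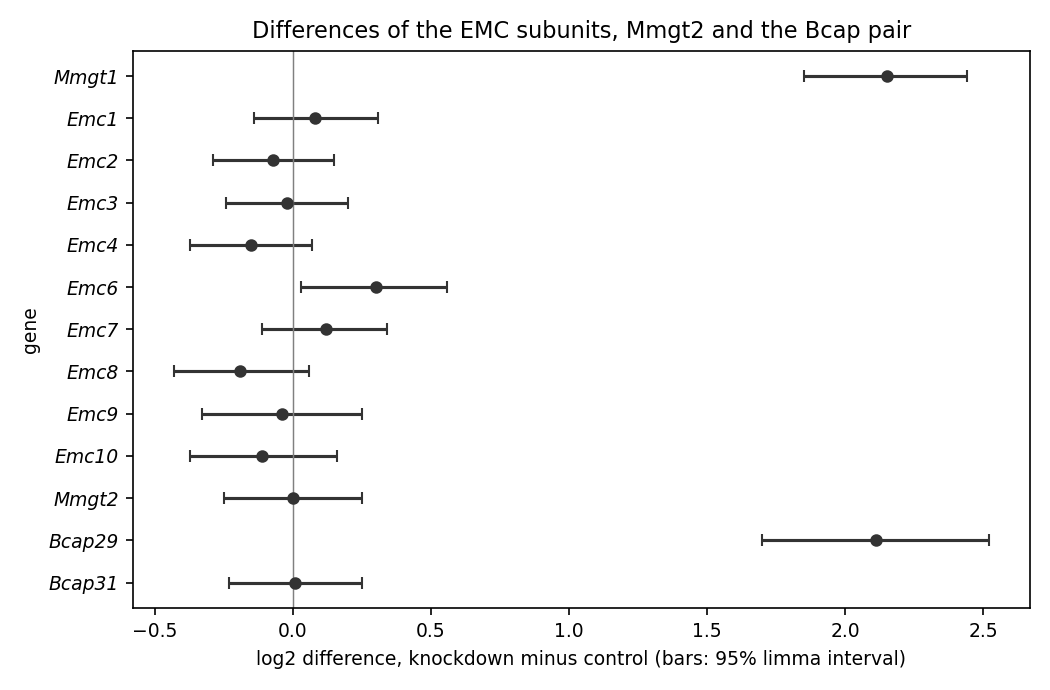
Log2 difference, knockdown minus control (horizontal axis), of the 10 EMC subunits, Mmgt2, Bcap29 and Bcap31. Points are differences between means of 3 arrays and bars are 95% limma intervals, not adjusted for the number of genes. Mmgt1 at 2.15 and Bcap29 at 2.11 were chosen for their increase, and the other points lie between -0.19 and 0.30.

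On the knockdown arrays Bcap29 stood at 8.07, 7.96 and 8.40, and on the control arrays at 6.16, 5.69 and 6.26. The groups were separated by more than their spread (SD 0.23 in the knockdown and 0.30 in the control, n = 3 each), with control replicate 2 the lowest. The log2 difference was 2.11 (SE 0.18), next in size after Mmgt1 as the 9th largest increase. By replicate number it was 1.91, 2.27 and 2.14. It ran from 1.93 without control replicate 2 to 2.22 without control replicate 3, and was 2.14 with the RNA integrity number as a covariate.

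Bcap31, the partner of Bcap29 and the more widely studied of the pair, read 8.89, 8.88 and 9.07 in the knockdown and 8.85, 8.93 and 9.03 in the control. The groups overlapped throughout. The log2 difference was 0.01 (95% interval -0.23 to 0.25), which spans 0.853 to 1.19 times the control.

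Proteins reported to bind Bcap31 were followed through 8 genes, among them the calcium-binding chaperone Canx and the apoptosis genes Casp8 and Bcl2. Of these 0 were called by limma, against 7.80% of all genes, so nothing is read from the count. Above 0 lay 3, with a median log2 difference of -0.05 against 0.00 for all genes. An unadjusted p under 0.05 by limma was found for 3, against 20.9% of all genes. Ndufs4, a subunit of mitochondrial complex I, read 8.31, 8.37 and 8.62 in the knockdown and 8.77, 8.81 and 8.92 in the control. Its difference of -0.40 did not pass (limma adjusted p of 0.0793). It did with the replicate number as a block (0.0426) and among genes with a mean level of at least 5 (0.0434). Bcl2, an inhibitor of apoptosis, had widely spread values of 7.98, 8.19 and 8.66 against 8.30, 9.19 and 9.54. Its difference of -0.73 did not pass either (0.221), but did with the block (0.0247) and when control replicate 1 was left out (0.0250), where it was -1.09. The difference was -0.47 when control replicate 3 was left out and -0.47 with the RNA integrity covariate, and a second, dim probe set of Bcl2 had 0.05. Stx17, a membrane fusion protein of autophagosomes, had a difference of 0.31 (adjusted p of 0.210).

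The genes next to Mmgt1 and Bcap29 on their chromosomes did not show differences of that size. On the X chromosome the nearest tested genes were Gm648, with a log2 difference of -0.14, and Fhl1, a LIM-domain protein, with 0.24. On chromosome 12 those next to Bcap29 were Slc26a4, an anion exchanger, with -0.27 and Dus4l, a tRNA dihydrouridine synthase, with 0.13. Adjusted p-values by limma for these 4 ran from 0.140 to 0.676. The groups of Fhl1 and Slc26a4 did not overlap, as for 25.5% of all genes. Gm648 had means of 3.22 in the knockdown and 3.36 in the control, and Slc26a4 of 4.07 and 4.34. Both lay below the median level of 5.06 over all genes, so their differences may be understated.

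The profile of Mmgt1 over the 6 arrays was then compared with the 11237 other genes with a mean level of at least 5. Pearson's r was highest for Tusc3 at 0.9988, Rnf141 at 0.9984, Pcgf3 and Metap1 at 0.9981 each, and Msra at 0.9973, and 61 genes had an r of 0.99 or more. All points share the difference between the groups, so r mostly reflects that difference and is given as a description. Tusc3, a subunit of the oligosaccharyltransferase that is also ascribed magnesium transport, read 10.34, 10.27 and 10.27 in the knockdown and 9.28, 9.19 and 9.07 in the control. Rnf141, a RING finger protein, was 3.17-fold higher and Metap1, which removes the first methionine of proteins, 2.95-fold. Pcgf3, of a Polycomb complex, was 1.56-fold and Msra, which repairs oxidised methionine, 1.49-fold higher. A second, dimmer probe set of Pcgf3 had a log2 difference of 0.29 against 0.64. Bcap29 had an r of 0.96 with Mmgt1, and the other genes of the group lay between -0.81 for Emc4 and 0.71 for Emc7.

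Other machinery of protein insertion into the endoplasmic reticulum changed in a minority of its genes. Of 52 measured genes for targeting, translocation, signal cleavage and N-glycosylation, the 3 further EMC subunits included, 7 rose and 2 fell, and 43 were not called. Their median log2 difference was 0.05 against 0.00 for all genes, of which 4.17% were called higher and 3.64% lower. With 1 array left out, 3 were higher and 0 lower when it was number 2 of either group, 4 and 0 when it was knockdown replicate 3, 6 and 0 when it was control replicate 1, and 5 and 1 when it was knockdown replicate 1 or control replicate 3. With the RNA integrity covariate the counts were 2 and 0.

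The multipass translocon, which joins the Sec61 channel to help proteins with several membrane spans fold in, held 3 of the 7 increases. With Tmem208, of a further targeting route, 6 genes of this list were measured, of which 3 rose, 0 fell and 3 did not pass. Among all genes 4.17% were called higher. All 6 lay above 0, as did 11019 of the 22180 genes tested, and the median of the 6 was 0.50. Tmco1, an insertase subunit of the same Oxa1 superfamily as Emc3, read 8.76, 8.74 and 8.82 in the knockdown and 7.88, 7.90 and 7.98 in the control. The groups were well apart, and the 1.81-fold rise had a limma adjusted p of 0.00181. A second, dim probe set of Tmco1 differed by 0.17, and the mean of both by 0.51. Ccdc47, the partner of Asterix in the PAT chaperone, rose from 7.29, 6.95 and 7.03 to 7.77, 7.76 and 7.65, a difference of 0.64 (SE 0.12). Ncln, nicalin, rose from 8.28, 8.29 and 8.14 to 8.90, 8.82 and 8.73, a difference of 0.58 (SE 0.10). Their calls were lost without knockdown replicate 2 (adjusted p of 0.0699 for Ccdc47 and 0.0550 for Ncln) and with the RNA integrity covariate (0.0796 and 0.0615), and that of Ccdc47 without control replicate 2 (0.0731). The list had 1 call without knockdown replicate 2 and 1 with the covariate, and 4 with the replicate block, with median centring, among genes with a mean level of at least 5 and with an intensity trend.

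The signal recognition particle and Sec61 make up the classical route. Of 8 genes of the particle and its receptor 2 rose, 0 fell and 6 did not pass. Over all genes 4.17% were called higher and 3.64% lower. Srprb, the receptor subunit in the membrane, read 8.68, 8.66 and 8.83 against 8.15, 8.12 and 8.25, a difference of 0.55 with an adjusted p of 0.0145. Srp9, of the Alu domain of the particle, rose by 0.38 (adjusted p of 0.0439), and Srp68 had a difference of 0.31 (0.146). Srprb lost its call without knockdown replicate 3 (0.0626), without control replicate 2 (0.0731) and with the covariate (0.0562). Srp9 lost it without each array in turn (0.0681 to 0.158), with quantile normalisation (0.0545) and with the covariate (0.112).

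Of 13 genes of the Sec61 channel and its accessory proteins, 1 rose, 0 fell and 12 did not pass. Among all genes 7.80% were called, so nothing is read from the count. The riser was Ssr1, a subunit of the translocon-associated protein complex, at 9.32, 9.29 and 9.19 against 8.84, 8.77 and 8.74, a difference of 0.48 (adjusted p of 0.0196), and its second probe set differed by 0.51. The call was lost without knockdown replicates 1 (0.0604), 2 (0.0810) and 3 (0.0501), control replicates 2 (0.0859) and 3 (0.0544) and with the covariate (0.0905). Ssr2, of the same complex, had a difference of -0.30 (0.130) and Sec61b, the beta subunit of the channel, one of 0.36 (0.194), where a dimmer probe set had -0.06.

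In the GET pathway for tail-anchored proteins, which the EMC shares clients with, 1 of 5 measured genes fell, 0 rose and 4 did not pass. Over all genes 7.80% were called, so nothing about the list is read from this count. Bag6, a chaperone that receives these proteins after release from the ribosome, read 9.21, 9.16 and 9.21 against 9.59, 9.58 and 9.54. The groups did not overlap, with a difference of -0.38 and an adjusted p of 0.0410. The call was lost without each array in turn (0.0782 to 0.142), with median centring (0.0640) and with the covariate (0.136). Get4 had a difference of 0.22 (adjusted p of 0.230) and Sgta one of 0.05 (0.851). Of 4 genes listed as clients of the EMC only Fdft1, squalene synthase, was measured by a probe set of its own, with a difference of 0.42 (0.416), and of 0.13 without control replicate 3 and 0.24 with the covariate.

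Of 17 genes of the signal peptidase and the oligosaccharyltransferase 1 rose, 1 fell and 15 did not pass. Over all genes 7.80% were called, so nothing about the list is read from these counts. The one that rose was Tusc3, by 1.11 (SE 0.10) or 2.16-fold (limma adjusted p of 0.000969). Its paralog Magt1, which takes the same place in the enzyme, had a difference of -0.01. Tmem258, a small subunit, read 5.49, 5.35 and 5.17 against 5.89, 5.89 and 5.76, a difference of -0.51 (0.0323). That call was lost without knockdown replicate 2 (0.105), knockdown replicate 3 (0.108), control replicate 1 (0.0746) and control replicate 2 (0.126), with median centring (0.0534) and with the covariate (0.120). Stt3a, a catalytic subunit, had a difference of 0.31 (0.0855), and was called higher among genes with a mean level of at least 5 (0.0375) and with an intensity trend (0.0337).

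**Figure D3:**
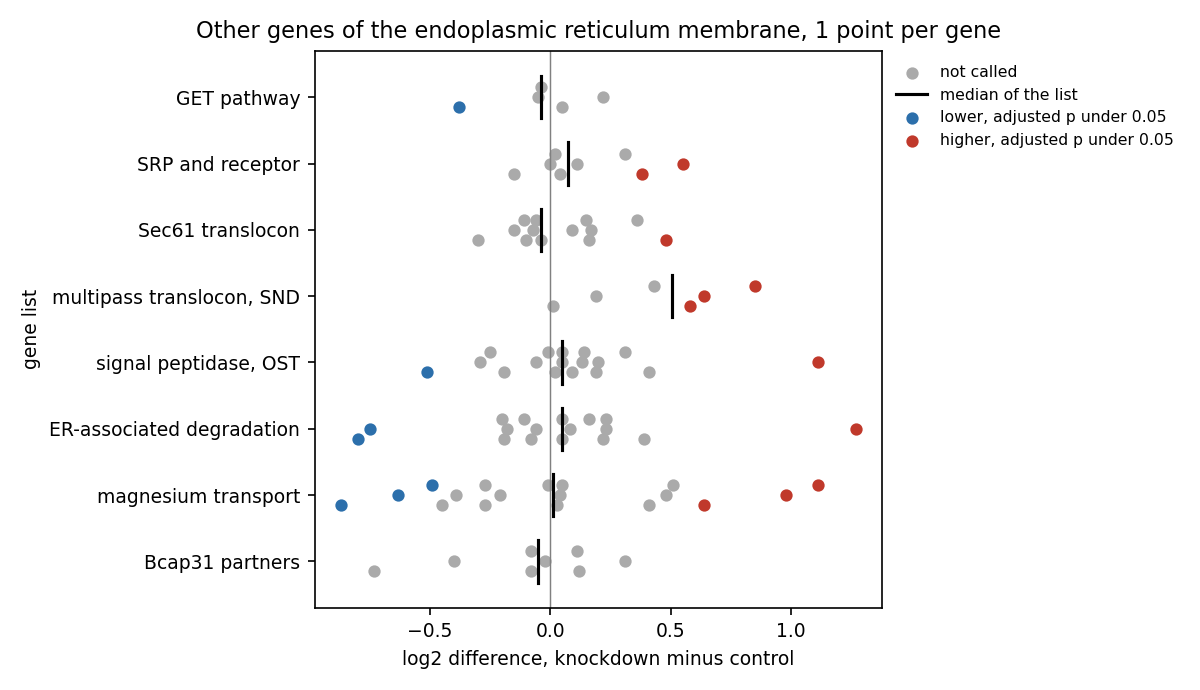
Log2 difference, knockdown minus control (horizontal axis), of the measured genes of 8 lists, 1 point per gene, with a black bar at each list's median. Red points were called higher and blue points lower at an adjusted p under 0.05 by limma, and grey points were not called. The multipass translocon list has its median at 0.50, and those of the other lists lie between -0.05 and 0.07.

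Endoplasmic reticulum-associated degradation, which removes membrane proteins that fail to fold, had 3 of 17 measured genes called, against 7.80% of all genes. By limma 5 had an unadjusted p under 0.05, against 20.9% of all genes, and in 10 the groups did not overlap, against 25.5%. Edem1, a lectin-like protein that marks misfolded glycoproteins, read 7.34, 7.48 and 7.49 in the knockdown and 6.20, 6.09 and 6.20 in the control. It rose 2.42-fold (limma adjusted p of 0.000630). A second, dim probe set of Edem1 differed by 0.30, and the mean of both by 0.79. Its relative Edem3 fell 1.68-fold, from 9.05, 8.88 and 8.96 to 8.30, 8.23 and 8.11 (0.00442). Ube2j1, a ubiquitin-conjugating enzyme of the membrane, fell 1.74-fold (0.00803). The other 14 genes did not pass, and the list's median was 0.05.

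Magnesium transport genes, listed because Mmgt1 and Mmgt2 carry that name, went both ways. Of 18 measured genes 3 rose, 3 fell and 12 did not pass. Over all genes 4.17% were called higher and 3.64% lower. The list's median was 0.01, and with the replicate number as a block 6 rose and 4 fell. An unadjusted p under 0.05 by limma was found for 12 of the 18, against 20.9% of all genes. In 12 the groups did not overlap, against 25.5% of all genes. Besides Tusc3, Slc41a2, a magnesium transporter, rose 1.97-fold, from 7.39, 7.30 and 7.56 to 8.40, 8.34 and 8.44 (adjusted p of 0.00180 by limma). Trpm7, a channel with a kinase domain that conducts magnesium, fell by 0.63, from 7.68, 7.58 and 7.68 to 7.00, 7.05 and 6.99 (0.00564).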

How the data were processed

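The deposited values are log2 levels per probe set, 1 Affymetrix array per sample. The submitters' processing notes name RMA and Affymetrix Expression Console (version 1.2.1.20). RMA equalises the arrays' distributions and compresses weak signals, so folds at low levels may be understated. Detection calls were not used here, and levels of different probe sets are not comparable. Of 41345 probe sets 23521 carry 1 gene symbol, which gives 22180 genes, 21994 of them matched to RefSeq by Entrez number. The 10 genes have 11 such probe sets. Knockdown was compared with control in limma 3.58.1 (R 4.3.3; lmFit, eBayes) with Benjamini-Hochberg adjustment over all genes, a procedure also tested on simulated data. Intervals are moderated 95% intervals.

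The genes and lists were chosen with earlier results of these data known. Genes named were the 10, Diras2, the other EMC subunits, the 3 genes of smallest p in each list, the 5 genes most correlated with Mmgt1 and the nearest tested neighbours. Named after their values were seen were Magt1, Canx and Casp8. Also outside this rule were Pdgfra, Lhx6, Dcx and Snap25, the markers called in their lists, and Tmem208, named to describe its list.

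Deviations from the group means correlated across genes at 0.43, 0.12 and 0.37 for same-numbered knockdown and control samples and at -0.38 to 0.06 for others. Deviations cancel within each group, so positive values for same-numbered samples lower those for others, which are no separate evidence. Same-numbered samples were treated as pairs in 1 alternative only, on the data's word and not the labels'. The fit behind the printed calls, counts and intervals has no pairing. Tried as alternatives were the pairing as a replicate block, each array left out, quantile normalisation, median centring, a minimum mean level of 5, an intensity trend, the RNA integrity number as covariate, averaging all probe sets of 1 gene and a threshold of 0.01. Figures were drawn with matplotlib 3.10.9.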

Additional observations from a re-analysis of the deposited data

How the results depend on the processing

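Among the 10 genes, the alternatives, the replicate block included, gave 2 called higher and 0 lower as well. Both called genes were chosen for their increase, so this count says nothing about stability. Of the other 8 genes, none was called under any alternative run. The 7 higher and 2 lower calls among the 52 membrane protein insertion genes became 8 and 2 with the replicate block, 2 and 0 with the RNA integrity covariate and 2 and 0 at an adjusted p under 0.01, and the lower calls 0 with median centring. Leaving out 1 array gave 3 to 6 higher and 0 to 1 lower, which tests fewer samples. Over all genes the block gave 1341 higher and 1252 lower calls against 924 and 807, the covariate 402 and 356, and leaving out 1 array 383 to 800 and 306 to 687. Emc3, at -0.02, ran from -0.052 without control replicate 2 to 0.038 without control replicate 3 and turned to 0.003 with median centring and 0.034 with the covariate. Bcap31, at 0.01, ran from -0.052 without knockdown replicate 3 to 0.057 without control replicate 3 and turned to -0.014 with quantile normalisation. The cause of these changes was not tested. Besides the calls named above for Ndufs4 and Bcl2, the block changed no call of a gene named here, cell type markers left aside. Without probe-level data, signal over background could not be judged for dim genes such as Emc9.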
